A study of Mus musculus with 768 samples.

Results

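Cd163 encodes a scavenger receptor of the SRCR family, and its reads are described here cell by cell in luminal epithelial cells of the mouse mammary gland and in macrophages of the same sort. It is 1 of 23997 gene names in both count tables. The gene and the cells were chosen from measured values: cells were kept with at least 50000 reads and 1000 detected genes, and reads of Cd163 were counted in cells with a Krt8 read and no read of the leukocyte genes Ptprc and Cd53, here called the Krt8-positive set, and in cells with C1qb or Csf1r at 20 CPM or more, here called the macrophage gate. CPM is the number of reads of a gene per 1000000 reads. Over both plates the Krt8-positive set held 481 of 617 kept cells and the macrophage gate held 42, of which 24 were control and 18 N1ICD-EGFP cells.

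All mice were C57BL/6 and carried WAP-CRE, a Cre recombinase driven by the Wap milk protein promoter, whose activity is known from secretory luminal cells of pregnancy and lactation. The controls were WAP-CRE; R26-tdTomato, in which Cre turns on a red fluorescent protein from the Rosa26 locus. The other group was WAP-CRE; R26-N1ICD-EGFP, in which Cre turns on the active intracellular part of the Notch1 receptor together with green fluorescent protein. Inguinal glands were taken after a stated lactation of 3 to 4 months, dissociated, sorted on reporter fluorescence and profiled by Smart-Seq2, with 1 plate of 384 wells for each genotype. No animal is named, so each group is 1 sample without a replicate check or a test. A difference of genotype cannot be told apart from one of plate or of reporter colour. Because the rule used these very values, they are given as a description. Intervals are exact 95% intervals for counting error only, since the reads are PCR copies with no molecular identifier and do not count molecules independently.

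CD163 is known as a surface receptor of tissue macrophages that takes up haemoglobin. The cargo is degraded inside the cell, where haem oxygenase opens the haem ring and ferritin stores the released iron. CD163 also binds the cytokine TWEAK, is cut from the cell surface by the protease ADAM17, and is raised in macrophages by glucocorticoids and interleukin 10.

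The gene lies on the forward strand of chromosome 6. GENCODE places it at 124304656 to 124330527 in GRCm38, the assembly behind mm10, with 3 transcripts, 2 of them protein-coding. The longest coding transcript has 17 exons and 4443 bases. No other GENCODE gene overlaps it and no joined gene name in the files holds it, whereas RefSeq places the predicted lncRNA Gm52877 within its span. Since the use of strand in the counting is unknown, reads of that lncRNA cannot be told apart from those of Cd163. The bases before the earliest annotated start are shown because the N1ICD-EGFP genotype encodes active Notch1 and the receptor has known activators in macrophages. Notch1 activity itself was not measured. They were read from RefSeq on GRCm38.p6, chr6:124304401-124304635, forward strand, and hold 36.6% G and C. Capitals mark the only match to the motifs searched.

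Cd163 upstream: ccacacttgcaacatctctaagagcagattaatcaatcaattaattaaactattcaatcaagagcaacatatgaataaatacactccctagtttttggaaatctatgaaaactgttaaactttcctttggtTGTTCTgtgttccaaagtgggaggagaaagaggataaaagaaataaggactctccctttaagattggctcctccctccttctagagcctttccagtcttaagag

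The capitals are TGTTCT, the core hexamer of glucocorticoid receptor elements, at 124304532 to 124304537. The same window of 32851 mouse promoters, searched on both strands, holds this hexamer in 15.3%. The window had no match to TGGGAA, the core bound by the Notch partner RBPJ (in 20.4% of promoters), to its longer form GTGGGAA (5.05%), which contains that core, or to GAGGAA of PU.1 and Ets factors (21.8%). It also had none to the STAT site TTCNNNGAA (6.62%), the AP-1 site TGANTCA (6.48%) or TATAAA (11.9%). The absence of a match says only that these letters are not in this window.

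Reads per kept cell ranged from 50048 to 608476 in the controls (median 241888, with a median of 3598 genes) and from 51736 to 615615 on the N1ICD-EGFP side (median 348469, 2482 genes). Cells of the macrophage gate fell partly into the Krt8-positive set, 12 of 24 control and 3 of 18 N1ICD-EGFP cells. These 15 cells are counted in both sets. The columns of the 768 wells held no identical pair.

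In the Krt8-positive set, 40 control cells had a Cd163 read (14.4% of the set, interval 10.5 to 19.1), as had 56 N1ICD-EGFP cells (27.5%, 21.5 to 34.1). After thinning of every cell to 50000 reads the shares were 12.3% and 24.02%. The median cell with a read held 16.5 reads in the control plate and 43 in the N1ICD-EGFP plate. Only 3 N1ICD-EGFP cells and no control cell rested on a single read, and 34 of 40 and 46 of 56 cells held at least 5. The lowest, median and highest level among cells with a read were 5.12, 86.5 and 393 CPM for control cells, and 2.29, 120 and 704 CPM for N1ICD-EGFP cells. Levels of the plates overlapped over most of their range, and most cells of both plates were at 0.

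Summed over the set, the level was 13.4 CPM in the control (912 reads, 12.5 to 14.3) and 46.6 CPM in the N1ICD-EGFP plate (3291 reads, 45.1 to 48.3). This is 3.49-fold higher (3.24 to 3.76), or a log2 ratio of 1.73 with a pseudocount of 1. Of 11312 genes at 5 CPM or more in either plate, 20.3% were 1.5 times or more higher and 2.8% were as high as Cd163 or higher, and the median log2 ratio was 0.04. Without the 15 cells that also passed the macrophage gate the shares were 15.1% and 26.9% and the fold 3.33 (3.09 to 3.59). Nothing is read from the rank among genes, because Cd163 was chosen from this contrast. Both the share of cells with a read and the level within those cells were higher in the N1ICD-EGFP plate. The 5 cells with the most reads held 36.4% of the Cd163 reads on the control plate and 32.3% on the N1ICD-EGFP plate.

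**Figure D1:**
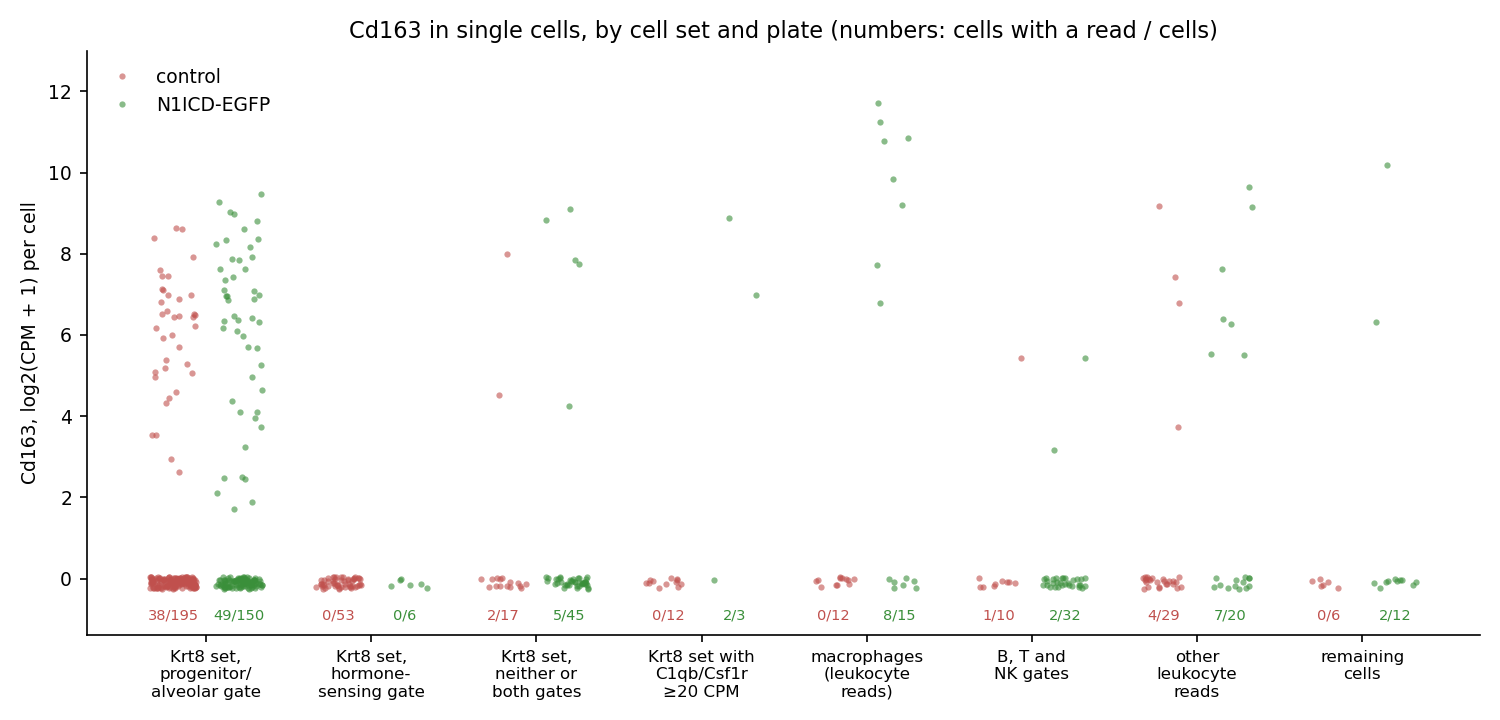
Cd163 in every kept cell as log2(CPM + 1), by cell set and plate (red, control; green, N1ICD-EGFP); points near 0 are cells without a read, spread for visibility, and cells of the Krt8-positive set with C1qb or Csf1r at 20 CPM or more stand in a column of their own. Cells with reads are spread through the progenitor and alveolar gate of both plates. No control cell in the hormone-sensing gate alone has one, whereas 2 control cells in both gates do. The highest levels, up to 3365 CPM, are in N1ICD-EGFP macrophages.

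Within the luminal cells, Cd163 was read mainly in those with markers of the progenitor and secretory side of the lineage. Cells with at least 3 of 8 progenitor and alveolar markers at 20 CPM (the receptor Kit, the alveolar factor Elf5, Aldh1a3, the milk proteins Csn3, Csn2, Ltf and Lalba, and Cd14), and without 3 hormone-sensing markers, held a read in 38 control cells (18.4% of them, 13.4 to 24.4) and in 50 N1ICD-EGFP cells (33.1%, 25.7 to 41.2). Their summed level was 19.2 against 51.8 CPM, 2.69-fold higher (2.50 to 2.91), beside 21.8% of genes that were 1.5 times or more higher in this gate. Cells with hormone-sensing markers only (the receptors Prlr, Pgr and Esr1, and Foxa1, Wnt4, Areg, Tnfsf11 and Cited1) held no read in 53 control cells, which allows a share of up to 5.66% by the floor of 3 counts (exact upper limit 6.72%). Those cells were deeper than the control progenitor cells, with medians of 332356 and 217034 reads.

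The N1ICD-EGFP plate had only 7 cells with hormone-sensing markers alone. The 1 with Cd163, at 32 reads, was a shallow cell of 67483 reads that also passed the macrophage gate through Csf1r at 29.6 CPM. Cells with both marker groups numbered 10 in the control, 2 of them with reads, and none in the N1ICD-EGFP plate. Cells with neither numbered 8 in the control, none with a read, and 46 in the N1ICD-EGFP plate, 5 of them with reads (10.9%). The gates were not sharp in the N1ICD-EGFP plate, where 38 cells held exactly 3 progenitor markers, 11 of them with Cd163, and 29 held exactly 2, of which 4 had it. All 40 control cells with Cd163 passed the progenitor and alveolar count, as did 50 of 56 in the N1ICD-EGFP plate.

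Luminal markers were read in cells with and without Cd163, and since a Krt8 read is part of the rule this is a description. Each of the 40 control and 56 N1ICD-EGFP cells had reads of at least 4 of 7 luminal markers (Krt8, Krt18 and Krt19, keratins of the luminal layer, Epcam, Cldn3, Cldn4 and Cdh1). So had all cells of the set without Cd163 except 1 control cell. The median Krt8 level was 648 CPM in control cells with Cd163 and 601 CPM in those without, and 698 against 646 CPM in the N1ICD-EGFP plate. Every cell with Cd163 had Krt8 at 20 CPM or more. Among progenitor and alveolar cells, Aldh1a3, a retinaldehyde dehydrogenase of luminal progenitors, was at 1262 CPM in control cells with Cd163 and 899.5 CPM in those without, and at 448 against 387 CPM in the N1ICD-EGFP plate. Kit was at 840 against 705 CPM in the control and at 969 against 827 CPM in the N1ICD-EGFP plate. Cd14 was lower with Cd163 in both plates, at 790.7 against 961.9 CPM (control) and 717.7 against 1086.9 CPM (N1ICD-EGFP). Elf5 went opposite ways, at 219.8 against 273.3 CPM in the control and 190.9 against 171.9 CPM in the N1ICD-EGFP plate. Csn2 was lower in both plates, at 2752.9 against 3116.1 CPM and at 872.9 against 1293.8 CPM. Lalba was higher in both, at 77.9 against 64.8 CPM and at 2.02 against 1.90 CPM. The milk protein Csn3 was lower in cells with Cd163 in both plates, at 13701 against 15538 CPM and at 3215 against 4970 CPM. Ltf, lactoferrin, went opposite ways, at 16195 against 14158 CPM in the control and 1522 against 2699.99 CPM in the N1ICD-EGFP plate.

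Cells with a read of the eGFP row held Cd163 more often in the N1ICD-EGFP plate. Of 83 such cells 35 had a read (42.2%, 31.4 to 53.5), against 21 of those without an eGFP read (17.4%, 11.1 to 25.3). The thinned shares were 37.3% and 14.9%. In the control plate, whose labelled genotype has no EGFP, 7 of 48 cells with an eGFP read (14.6%) and 33 of those without (14.4%) held Cd163. Summed levels in the N1ICD-EGFP plate were closer than the shares, at 56.5 and 37.7 CPM, because cells with Cd163 but without eGFP reads had a higher median (196.07 against 86.99 CPM). Between plates, the level in cells without an eGFP read was 14.6 CPM in the control, and the N1ICD-EGFP level was 2.59-fold higher (2.37 to 2.82). In cells with an eGFP read the control was at 7.60 CPM, and the N1ICD-EGFP level was 7.43-fold higher (6.02 to 9.27). Cells with eGFP reads were deeper (median 431429 against 310102 reads) and held more genes (3179 against 2299), and the part of depth and gene number in the unthinned share was not tested.

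**Figure D2:**
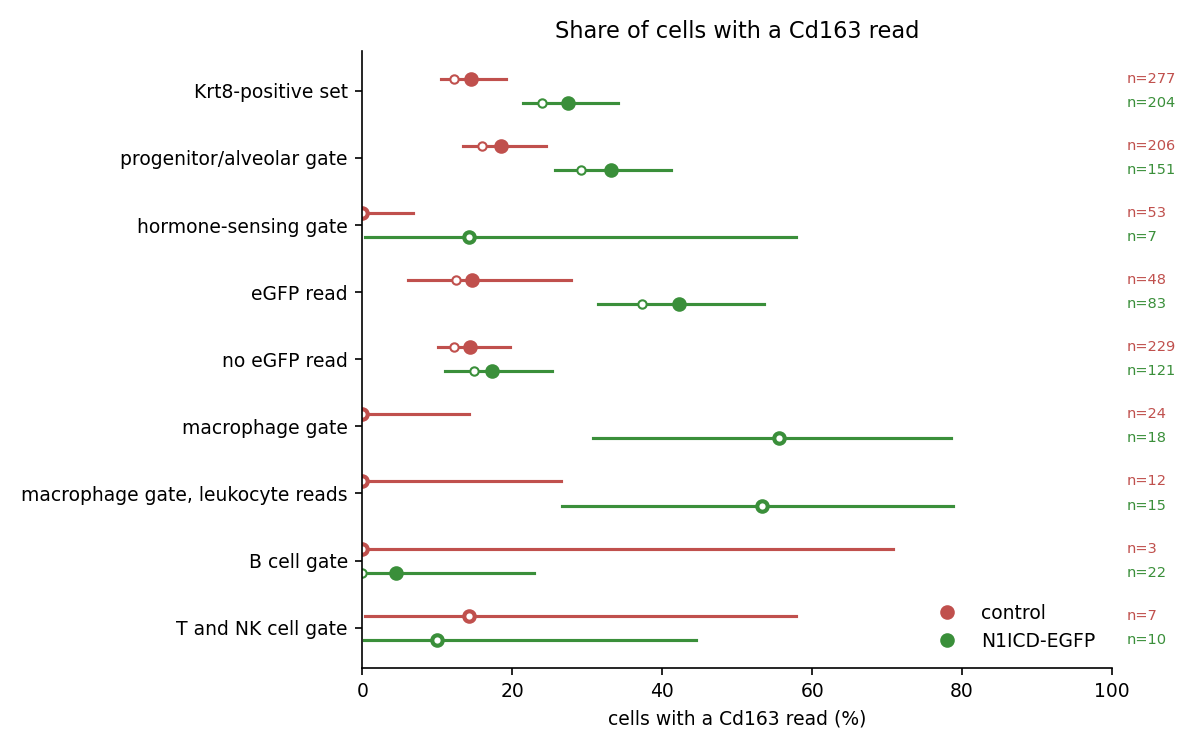
Share of cells with a Cd163 read (percent, horizontal axis) in 9 sets of cells by plate; filled points are all reads with Clopper-Pearson 95% intervals as lines, open points are cells thinned to 50000 reads, and n is the number of cells. In the Krt8-positive set the shares are 14.4% (control) and 27.5% (N1ICD-EGFP). The share in N1ICD-EGFP cells without an eGFP read, 17.4%, lies near the control share. The summed level of such cells, not shown here, is 14.6 CPM in the control and 37.7 CPM in the N1ICD-EGFP plate.

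Depth and complexity moved with Cd163 in the N1ICD-EGFP plate. Cells with Cd163 had a median of 387741 reads and 3069.5 genes there, against 336499 reads and 2396 genes in cells without. In the control the values were nearly level, at 249652 against 247874 reads and 3714.5 against 3590 genes. With the N1ICD-EGFP set cut into 3 groups of equal size by number of genes, the share was 11.8%, 29.4% and 41.2%, whereas the summed level was 24.2, 69.8 and 43.3 CPM and did not follow the same order. Cut by number of reads, the shares were 22.1%, 23.5% and 36.8%. Control shares by number of genes were 8.60%, 18.7% and 16.1%. The part of complexity in the difference between plates was not tested.

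Position on the plate is given as a description, and clustering of wells was not tested. Krt8-positive cells with Cd163 lay in 14 rows and 21 columns of the control plate and in 16 rows and 22 columns of the N1ICD-EGFP plate. In well columns 1 to 12 and 13 to 24 the shares were 11.3% and 17.6% for control cells and 25.7% and 29.5% for N1ICD-EGFP cells, so that the N1ICD-EGFP plate was higher in both. Summed levels in these columns were 8.74 and 19.1 CPM for control cells, 32.95 and 62.9 CPM for N1ICD-EGFP cells. Of 36 N1ICD-EGFP cells of the set in wells next to a macrophage with Cd163, 8 held a read (22.2%), against 48 of those elsewhere (28.6%).

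In the macrophage gate, Cd163 was found in the N1ICD-EGFP plate alone. It had reads in 10 of 18 N1ICD-EGFP cells (55.6%, 30.8 to 78.5) and in none of 24 control cells, which allows a share of up to 12.5% by the floor of 3 counts (exact upper limit 14.2%). The summed level was 632 CPM (5034 reads, 615 to 649.8) against 0 reads in the control. With the control set to the floor of 3 reads over the group, the ratio was 1136.5. That ratio is no lower limit, because a single cell with Cd163 can hold far more reads than the floor. N1ICD-EGFP cells of the gate with a read held 32 to 1403. Among gate cells that also held Ptprc or Cd53 reads, 8 of 15 N1ICD-EGFP and 0 of 12 control cells had a read. The N1ICD-EGFP level of these cells was 705 CPM (686 to 725). By the same floor the ratio was 676.967, which is no lower limit either. Over the whole gate, the N1ICD-EGFP level was 13.6-fold that of the Krt8-positive set of the same plate, and the median over cells with a read was 6.30-fold higher. Outside the gate, 1 control cell with leukocyte reads and no Krt8 read had reads of 6 of 21 macrophage markers. It held 47 Cd163 reads at 580 CPM, the highest level of the control plate, so the absence in the control holds for this gate only.

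The N1ICD-EGFP macrophages split by C1qb, a chain of complement C1q that resident macrophages make. All 8 cells with leukocyte reads and C1qb at 500 CPM or more had Cd163, between 108.5 and 3365 CPM with a median of 1339 CPM. The other 7 cells with leukocyte reads had none, and their C1qb lay between 0 and 320.98 CPM. The control plate had 7 cells with leukocyte reads and C1qb at 500 CPM or more, with a median of 3475 CPM of C1qb, and none of them had a Cd163 read. The C1qb threshold of 500 CPM was chosen after these values had been seen, so the split is a description.

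**Figure D3:**
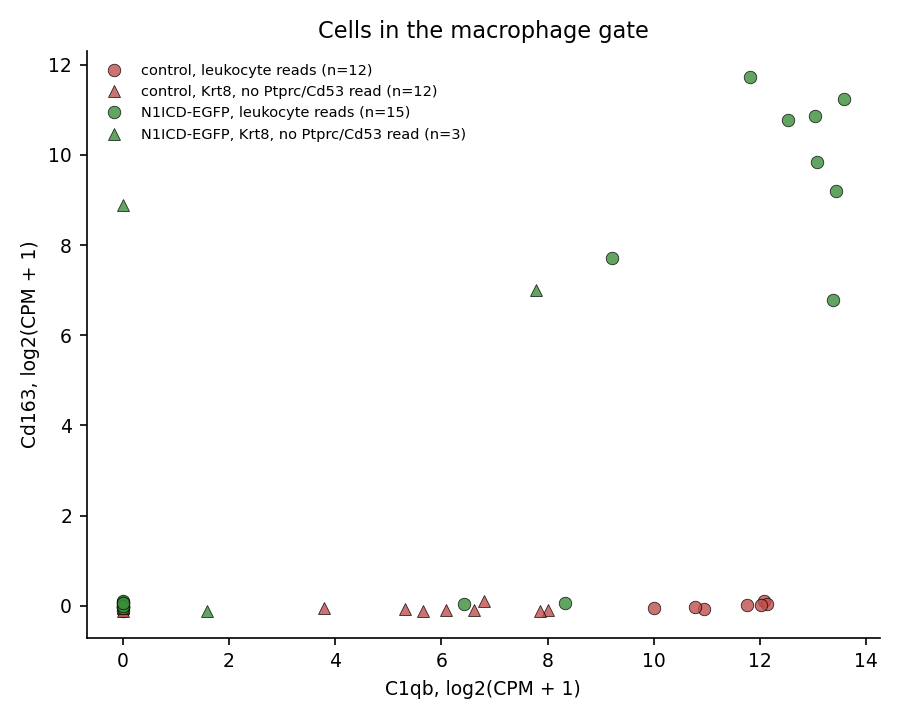
Cd163 against C1qb, both as log2(CPM + 1), in the 42 cells of the macrophage gate; circles are cells with Ptprc or Cd53 reads, triangles cells of the Krt8-positive set, red control and green N1ICD-EGFP. The 8 N1ICD-EGFP circles with C1qb at 500 CPM or more all lie above 0 for Cd163, and all 24 control cells lie at 0.

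Several other markers of tissue-resident macrophages were read in these cells. Only a part of the marker list is compared by C1qb level, and other members went the other way. In the 8 N1ICD-EGFP cells with high C1qb, F13a1, the factor XIII A subunit, was read in 8, the mannose receptor Mrc1 in 8, the folate receptor Folr2 in 7, the chemokine Pf4 in 7, the secreted protein Retnla in 7 and the hyaluronan receptor Lyve1 in 6. In the 7 control cells with high C1qb the counts were 1 for F13a1, 4 for Mrc1, 2 for Pf4 and 0 for Folr2, Retnla and Lyve1. The scavenger receptor Stab1 was read in 5 of 8 and 5 of 7. In the 7 N1ICD-EGFP macrophages without Cd163, Folr2, Pf4 and Lyve1 had no read, F13a1 was read in 4 and Retnla in 5. C1qb itself was higher in the 8 N1ICD-EGFP cells (summed 8028 CPM) than in the 7 control cells (3142 CPM).

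The gate took in cells of unequal standing. Of 21 macrophage markers measured, control cells of the gate had a median of 4.5 read and a range of 1 to 17. All N1ICD-EGFP cells of the gate had a median of 10, those without Cd163 9.5 and those with it 18. With at least 8 markers required, 9 of 15 N1ICD-EGFP cells had a Cd163 read and none of 9 control cells did. At the edge of the gate, the 3 cells just inside had 29.6, 31.1 and 37.7 CPM as the higher of C1qb and Csf1r, with 32, 0 and 0 Cd163 reads. The 3 just outside had 11.8, 15.3 and 19.98 CPM, with 23, 0 and 0 Cd163 reads.

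Cells of the B, T and NK gates held few Cd163 reads. Of 22 N1ICD-EGFP cells gated by B cell markers, 1 held 3 reads (4.55%, 0.115 to 22.8, 0.484 CPM), and none held a read after thinning. These cells had a median depth of 296346 reads, against 352560 in the N1ICD-EGFP Krt8-positive set, where the share was 27.5%. Among T and NK cells, 1 of 10 from the N1ICD-EGFP and 1 of 7 from the control plate held a read, at 6.05 and 5.31 CPM. The intervals of these shares are wide, 0.253 to 44.5% and 0.361 to 57.9%. In all cells with Ptprc or Cd53 reads outside the macrophage gate, which include the lymphocytes, the shares were 12.8% of 39 control and 17.3% of 52 N1ICD-EGFP cells. Those that also had Krt8 reads held Cd163 in 4 of 31 and 6 of 22 cells (12.9% and 27.3%), close to the shares of the Krt8-positive set of each plate. Those without a Krt8 read held it in 1 of 8 and 3 of 30 cells (12.5%, 0.316 to 52.7, and 10%, 2.11 to 26.5). The control shares with and without Krt8 were close in value. The share without Krt8 rests on 1 cell, which had 6 macrophage markers read, so nothing is read from it.

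Set in order of summed level, N1ICD-EGFP macrophages with leukocyte reads came highest (705 CPM), followed by the 12 cells without Krt8, Ptprc or Cd53 reads (55.6 CPM, 48.1 to 63.96, from 2 cells, and 7.73 CPM without the one with the most reads). The Krt8-positive set (46.6 CPM) was next and its interval overlapped the one before. Other cells with leukocyte reads (37.5 CPM, 34.6 to 40.6, and 22.1 CPM without their highest cell), T and NK cells and B cells came after it. In the control the order was different. Cells with leukocyte reads outside the macrophage gate (19.4 CPM, 16.6 to 22.5, 5 cells) lay above the Krt8-positive set (13.4 CPM). One of these cells held 69 of their reads. Without the cell with the most reads in each set, the levels were close, at 12.2 and 11.96 CPM. T and NK cells were at 5.31 CPM and macrophages at 0 reads.

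Macrophage markers in the Krt8-positive cells were read at low levels with and without Cd163. In the control, cells with Cd163 had a median of 0 of the 21 markers (at most 2), and 27 of 40 had none. C1qa, C1qc, Csf1r, Tyrobp and 9 other markers were at 0 reads over all 40 cells. The markers summed to 5.20 CPM there, against 87.02 CPM in control cells without Cd163 and 21264 CPM in control macrophages with leukocyte reads. Only 4 of 21 markers were read in a higher share of control cells with Cd163 than of those without.

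In the N1ICD-EGFP plate the markers moved with Cd163. Cells with Cd163 had a median of 1 marker (at most 8), 18 of 56 had none and 11 had at least 3. Cells without Cd163 also had a median of 1 (at most 4), 56 had none and 17 had at least 3. After thinning the median was 0 in both. The summed markers were at 133.7 CPM with Cd163 and 39.5 CPM without, against 67634 CPM in macrophages with leukocyte reads. Of the 21 markers 14 were read in a higher share of cells with Cd163, and Aif1 and Stab1 were at 0 reads in them. Single cells ranged from 0 to 4160 CPM of summed markers with Cd163 and from 0 to 3134 CPM without.

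A large part of these marker reads came from 1 cell. The N1ICD-EGFP cell with 8 macrophage markers also passed the macrophage gate and held 46 Cd163 reads, all 80 C1qb reads of the 56 cells, and all but 2 of their C1qc and 4 of their Csf1r reads. By contrast, the 18 cells without any macrophage marker held 848 Cd163 reads and the 14 cells with 1 marker held 1328 of the 3291 in all. For every 100 Cd163 reads, the 8 N1ICD-EGFP macrophages with leukocyte reads and a Cd163 read held 628 reads of C1qb, 229.8 of Csf1r, 70.6 of Tyrobp and 1834 of Lyz2. The N1ICD-EGFP Krt8-positive cells with Cd163 held 2.43, 3.59, 7.02 and 31.4. Control Krt8-positive cells with Cd163 held 0.329, 0, 0 and 0.329. All of these cells were chosen for a Cd163 read, so the ratios are a description.

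**Figure D4:**
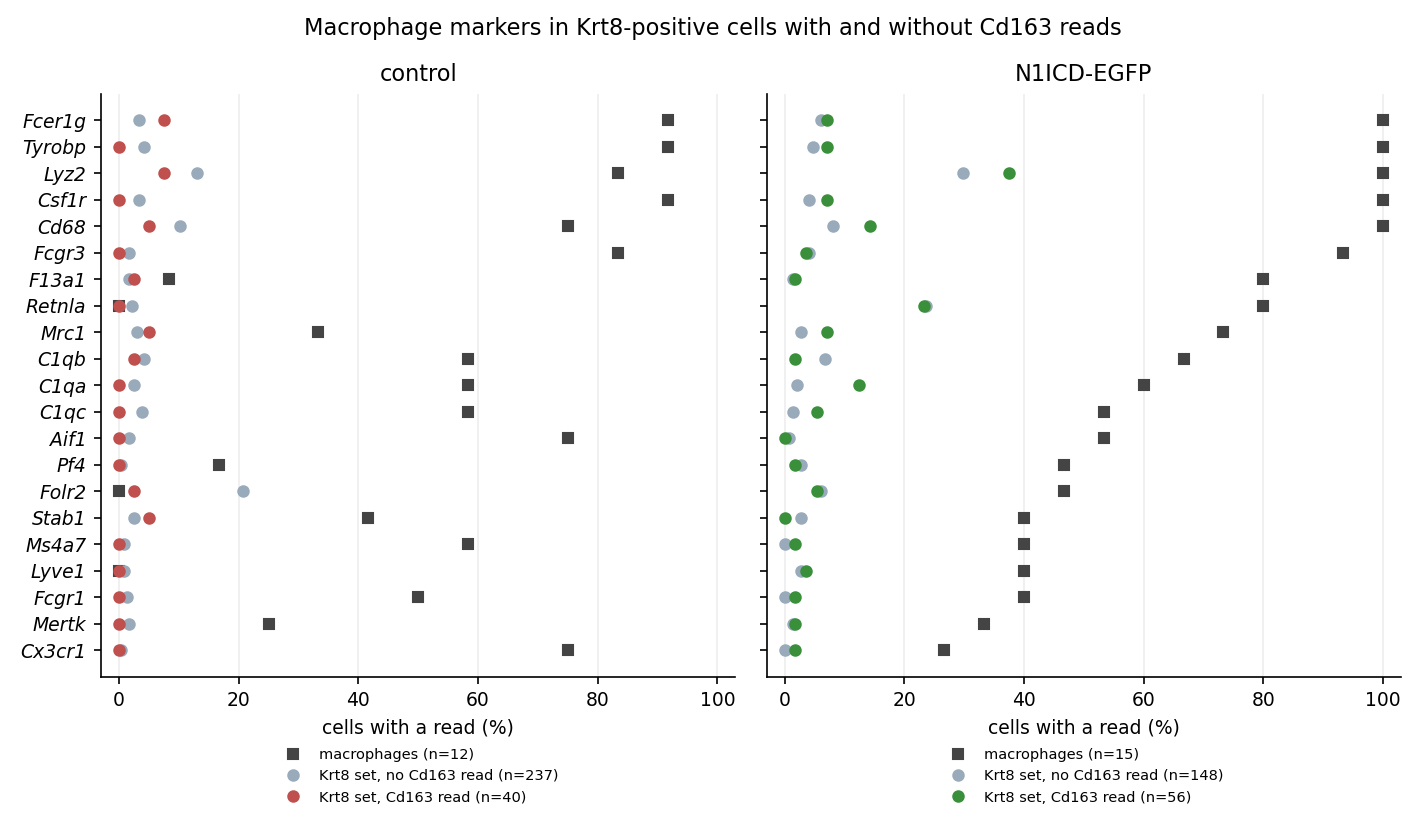
Share of cells with a read (percent, horizontal axis) of 21 macrophage markers in Krt8-positive cells with a Cd163 read, in those without, and in macrophages with leukocyte reads (squares), for each plate. Both kinds of Krt8-positive cells lie far below the macrophages for most markers, except for Retnla, Folr2 and Lyve1, which no control macrophage had, and the cells with Cd163 lie above those without for 14 of 21 markers in the N1ICD-EGFP plate and for 4 of 21 in the control.

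The difference between plates was smaller in cells free of such reads. Cells of the Krt8-positive set without a read of any macrophage or leukocyte marker numbered 67 on the control plate and 38 on the N1ICD-EGFP plate. Cd163 was read in 12 (17.9%, 9.61 to 29.2) and 8 (21.1%, 9.55 to 37.3), and in 16.4% and 13.2% after thinning. The levels were 16.1 and 28.2 CPM, 1.76-fold higher in the N1ICD-EGFP plate (1.48 to 2.09). Without the cell with the most Cd163 reads in each plate, they were 12.7 and 16.7 CPM. Luminal cells themselves read some of these markers, such as Lcp1 in 33.2% and Ptpn6 in 23.8% of the control set. The intervals of the shares overlapped and the order of the thinned shares was the other way round. A higher Cd163 share in such cells of the N1ICD-EGFP plate was therefore not detectable with these numbers. Requiring no marker read also selects cells with fewer reads and genes, with medians of 329474 reads in the N1ICD-EGFP and 224994 in the control plate.

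Markers of other cell types were also counted in the Krt8-positive cells with Cd163. B cell markers were read in 8 of 56 N1ICD-EGFP and 1 of 40 control cells with at most 2 markers a cell, and T and NK markers in 1 cell of each plate. Dendritic cell markers summed to 3.87 CPM with Cd163 and 2.71 CPM without in the N1ICD-EGFP plate, and to 0.935 and 7.69 CPM in the control. Basal markers were lower with Cd163 in both plates, at 201.96 against 360.6 CPM in the N1ICD-EGFP and 45.1 against 513 CPM in the control, but at least 1 of 6 was read in all but 38 of the 56 and all but 24 of the 40 cells with Cd163. Fibroblast markers were higher with Cd163 in the N1ICD-EGFP plate, at 22.9 against 4.66 CPM, and lower in the control, at 1.25 against 160.02 CPM. Of the 22.9 CPM, 22.05 were Pdgfra from 1 of 56 cells. In the control, a single cell without Cd163 reached 43836 CPM of these markers. The part of these marker groups in the Cd163 values was not tested.

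Haptoglobin, which binds free haemoglobin, was itself a major transcript of these luminal cells. Hp was at 1033 CPM in the control and 4519 CPM in the N1ICD-EGFP Krt8-positive set, 4.38-fold higher, and 67.1% of control and 95.6% of N1ICD-EGFP cells had a read. Among N1ICD-EGFP progenitor and alveolar cells it was at 5615 CPM with Cd163 and 3749 CPM without. In the control the order was reversed, with 355.7 CPM with Cd163 and 1233 CPM without. The haemoglobin genes Hba-a1, Hba-a2 and Hbb-bs had no read in the set.

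Of 24 genes of haemoglobin, haem and iron handling, 16 reached 5 CPM in either plate. Of these 5 were 1.5 times or more higher and 2 lower in the N1ICD-EGFP set, beside 20.3% and 19.5% of all genes, and their median log2 ratio was 0.24 against 0.04 over all genes. The higher ones were Hp, the haem oxygenase Hmox1 (7.28 to 14.6 CPM), the biliverdin reductases Blvra (29.2 to 47.5 CPM) and Blvrb (57.6 to 89.1 CPM) and the ferritin heavy chain Fth1 (1495 to 2409 CPM). Reads of Hmox1 came from only 5.78% of control cells and 3.92% of N1ICD-EGFP cells, those of Blvra from 25.99% and 14.7%, and those of Blvrb from 47.3% and 37.7%. For these 3 of the 5 genes the share of cells was the other way round from the summed level. The lower ones were Lrp1, the receptor for haem bound to haemopexin (21.8 to 2.44 CPM), and the iron importer Slc11a2 (20.2 to 13.1 CPM). Ferroportin, Slc40a1, was at 23.7 and 31.9 CPM, and the haem transporter Slc48a1 at 114.7 and 132.9 CPM.

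Of 23 other listed genes with SRCR domains or scavenger function, 21 were in the files and 9 reached 5 CPM. Of these 3 were 1.5 times or more higher and 4 lower, beside 20.3% and 19.5% of all genes, with a median log2 ratio of 0.11. Dmbt1, a secreted SRCR protein of epithelia, was at 641 CPM in the control and 41.1 CPM in the N1ICD-EGFP set. The fatty acid receptor Cd36 was at 39.6 and 0.468 CPM, the lipoprotein receptor Scarb1 at 85.8 and 40.2 CPM, and Lgals3bp at 80.7 and 44.2 CPM. Higher were Scara3 (8.83 to 17.4 CPM), Cxcl16 (82.8 to 127.5 CPM) and Marco (0.278 to 10.5 CPM), which had reads in only 1.47% of N1ICD-EGFP cells. Scara5, a ferritin receptor, was at 173.7 and 197.1 CPM. The close relative Cd163l1 had 6 control and 4 N1ICD-EGFP reads in the set.

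**Figure D5:**
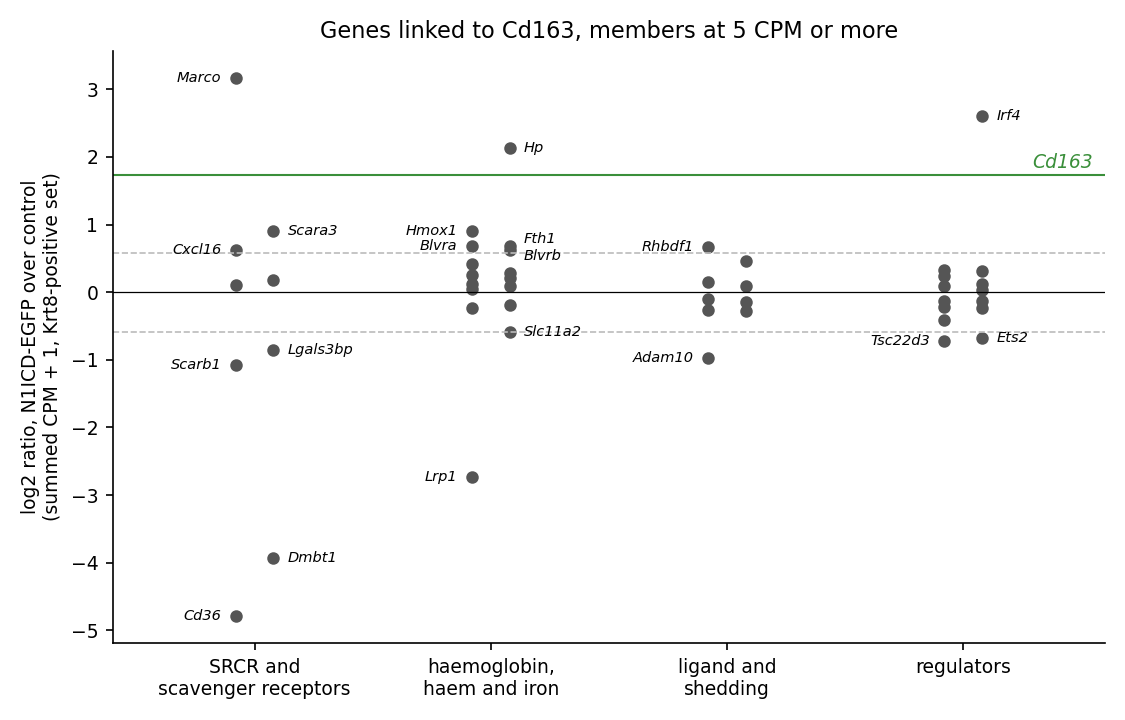
Log2 ratio of N1ICD-EGFP over control (vertical axis, summed CPM plus 1, Krt8-positive set) for members of 4 gene lists at 5 CPM or more around Cd163; dashed lines mark 1.5 times, the solid green line is Cd163 at 1.73, and members past 1.5 times are named. Members lie on both sides of 0 in every list, with Hp at 2.13 and Cd36 at -4.79.

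Among ligands and shedding factors, 9 of 9 genes reached 5 CPM, with 1 higher and 1 lower beside 20.3% and 19.5% of all genes, and a median log2 ratio of -0.10. Tnfsf12, which encodes TWEAK, was at 8.20 and 8.77 CPM and its signalling receptor Tnfrsf12a at 51.2 and 42.4 CPM. The sheddase Adam17 was at 75.3 CPM in the control and 61.7 CPM in the N1ICD-EGFP set. Its relative Adam10 was lower (311.1 to 158.1 CPM), and Rhbdf1, an iRhom that carries ADAM17 to the surface, was higher (125.9 to 201.4 CPM).

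Regulators known from macrophages were mixed in presence. Of 19 listed, 14 reached 5 CPM, 1 of them higher and 2 lower beside 20.3% and 19.5% of all genes, with a median log2 ratio of -0.04. The glucocorticoid receptor Nr3c1 was read at 137.8 and 117.02 CPM and its target Tsc22d3 was lower (250.01 to 151.6 CPM), while another target, Fkbp5, was at 79.6 and 99.6 CPM. Spi1, which encodes the myeloid factor PU.1, had 24 control reads and 2 N1ICD-EGFP reads in the set, and Maf 4 and 1. In N1ICD-EGFP macrophages with leukocyte reads these were at 266.2 and 163.9 CPM. The interleukin 10 receptor chain Il10ra had 3 and 2 reads. Ets2 was lower (379.3 to 237.05 CPM). Irf4 was higher (0.805 to 9.99 CPM) on reads from 1.47% of cells.

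No gene tracked Cd163 closely from cell to cell. Over the N1ICD-EGFP cells of the set, the highest Pearson correlations of log2(CPM + 1) among 8427 genes were 0.32 for Cad, a pyrimidine synthesis enzyme, 0.30 for the transcription cofactor Lmo4, and 0.29 for Kctd2, Tsen15, Ggcx and M6pr. The next were Exoc6b, Ncoa7, Polr2f and Higd2a, down to 0.27. In the control cells these 10 had values from -0.15 to 0.095, and the 10 highest of the control, led by Celf2 at 0.28, shared none with them. The number of genes detected gave 0.24 in the N1ICD-EGFP and -0.0076 in the control cells. Cells of a plate share library preparation and depth, and correlations this weak in sparse counts are no finding.

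Of 6 protein-coding neighbours within 200 kb in the files 4 reached 5 CPM, and of these none was 1.5 times or more higher and 2 were lower, beside 20.3% and 19.5% of all genes. Their median log2 ratio was -0.86, and with 4 genes nothing is read from it. The nearest of these, Pex5, a peroxisomal import receptor 66.3 kb away, was at 69.5 and 99.3 CPM. The complement genes C1s1 and C1ra were lower (15.4 to 2.38 CPM and 6.79 to 1.33 CPM), and C1rl was at 7.53 and 7.60 CPM.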

How the data were processed

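Raw read counts per gene and cell were deposited by the authors for 768 sorted cells, made from Smart-Seq2 libraries and, per the submitters' processing notes, STAR alignments to mm10. Not given in the sources used here were versions, the annotation, and the tool and strand setting of the counting. Each file held 24490 rows, of which 492 repeated a gene name and were added together. Wells were joined to groups by title. Cells with at least 50000 counts and 1000 genes were kept, and total counts per kept cell ranged from 50048 to 615615. These were 334 control and 283 N1ICD-EGFP cells, of which 277 and 204 were in the Krt8-positive set, 206 and 151 of these in the progenitor and alveolar gate alone, and 229 and 121 without an eGFP read. Counts were summed by plate and cell set and scaled to CPM. Ratios were taken for genes at 5 CPM or more in either plate and counted as higher or lower past 1.5 times, with a pseudocount of 1 for log2 ratios. Marker gates asked for 3 of 8 markers (B, T and NK gates 2) at 20 CPM. Thinning drew 50000 reads per cell without replacement. Doublets were not called, and an alternative left out cells with very many genes. Shares have Clopper-Pearson and sums exact Poisson 95% intervals, with a floor of 3 counts for 0. With 1 plate a group no test was run. Named genes are Cd163, members of the fixed lists at 5 CPM or more, the 10 genes most like it by correlation in the N1ICD-EGFP set and protein-coding neighbours within 200 kb; listed members below 5 CPM are given by their read counts or as markers. The control genes most like Cd163 and the C1qb split were added after the values had been seen. The gene, lists and gates were chosen with earlier results of these data known. Adgre1, Trbc2, Scart2, Ssc4d, Hbb-bt, Flvcr1 and Flvcr2 were not found by name. Gene models and the upstream sequence are from GENCODE and RefSeq on GRCm38. Alternative scalings used edgeR 4.0.16 (TMM) and DESeq2 1.42.0 (median of ratios) in R 4.3.3; the rest used Python 3.11.15, numpy 2.4.6, pandas 2.3.3 and scipy 1.17.1. The calculation was tested on simulated data.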

Additional observations from a re-analysis of the deposited data

How the results depend on the processing

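The N1ICD-EGFP share of Krt8-positive cells with Cd163 was higher than the control share in 13 of 13 settings, with ranges of 21.1% to 33.1% and 11.3% to 18.4%. The log2 ratio of the summed level was above 0 in 17 of 17, between 0.78 and 1.81 beside 1.73. It left its counting interval in 6: it was 1.41 without possible doublets, 1.27 without reads of 8 macrophage and leukocyte genes, 1.57 with thinned cells, 1.59 as the average CPM per cell, 1.38 in the progenitor and alveolar gate alone and 0.78 in cells with no macrophage or leukocyte marker read. There the shares were 17.9% and 21.1%, and once thinned their order reversed, at 16.4% and 13.2%. These last 2 settings, one with fewer than 3 macrophage markers (1.67), and levels without the highest cell were chosen after seeing the data. The share in the macrophage gate over both plates, 23.8%, was 47.4% where C1qb and Csf1r were both read. The background of higher genes, 20.3%, was 13.4% without the filter on low values. The log2 ratio of Cd163 was 1.74 with TMM and with median-of-ratios scaling. No cause of these shifts was tested. No paired analysis was possible because wells carry no replicate numbers and each group is 1 plate. Shares in the small gates (3 to 24 cells) are limited by the number of cells.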

Other observations

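Wells left out for low depth or few genes held few Cd163 reads. In the control plate 5 of 50 such wells held 46 reads, or 34.2 CPM (25.1 to 45.7), and 3 of the 5 also had a leukocyte read. In the N1ICD-EGFP plate 4 such wells held 10 reads, or 6.33 CPM (3.03 to 11.6), and 2 of the 4 had a leukocyte read. Median depths of these wells were 28772 and 665 reads. Among kept cells without Krt8, Ptprc or Cd53 reads and outside the macrophage gate, 2 of 12 N1ICD-EGFP cells held Cd163, with a median of 97.5 reads, and 0 of 6 control cells did.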
